A study of Mus musculus with 12 samples.

Results

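Chromatin protein genes of 2 families were followed here in primary mouse embryonic fibroblasts with and without DNA damage: the histone genes, and the HMGB and HMGN genes of the high mobility group. The members were the rows of the deposited tables whose names begin with HIST and a digit, H1F, H2AF or H3F, or with HMGB or HMGN and a digit. This gave 30 of the 11481 genes listed in either table. All 30 were listed for doxorubicin and 22 for mock, and those 22 were in both. The members were 16 Hist genes, 1 linker histone variant (H1fx), 6 genes of H2A variants, 2 genes of histone H3.3, 2 HMGB genes and 3 HMGN genes. The names of both deposited tables hold noYX, which may mean that genes of the X and Y chromosomes were left out. Hmgb3 and Hmgn5 were not listed, and absence from the listing does not show that a gene was silent. Of the Hist genes 8 were listed only for doxorubicin, namely Hist1h2ab, Hist1h2ac, Hist1h2bg, Hist1h2bj, Hist1h3d, Hist1h4a, Hist1h4h and Hist1h4m.

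RNA sequencing covered 12 libraries in 4 groups of 3. All cells came from mice of a hybrid 129/B6 background and were grown as primary cultures. Wild-type (WT) cells were lincRNA-p21+/+ and knockout (KO) cells were lincRNA-p21-/-, which removes a long noncoding RNA gene that lies beside Cdkn1a. Cells of each genotype were mock treated or received doxorubicin, a drug that breaks DNA, for 24 hours at a stated 0.5 mM, a unit that is in doubt because micromolar doses are usual. The labels number the replicates 1 to 3 in every group without saying whether a number marks an embryo, a culture or a day, so p-values measure the spread between these libraries, which may be in part technical. Values are CPM, the reads of a gene scaled to a fixed library total, and library totals ran from 14327048 to 20511907 reads. The lowest WT library of any listed gene was above 2 CPM, while KO libraries of 164 genes in mock and 313 after doxorubicin were not, so the listing followed the levels in WT. LincRNA-p21 itself was not analysed here, so the genotype was not checked against it.

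DNA winds around histone octamers built from H2A, H2B, H3 and H4, and linker histone H1 binds where the DNA enters and leaves. The Hist genes are replication dependent: their messages are made in S phase and end in a conserved stem-loop bound by Slbp instead of a poly(A) tail. The variant genes, such as those of H2A.Z, macroH2A and H3.3, are transcribed through the cell cycle into polyadenylated messages, and H2afx, the gene of H2A.X, is known to give both forms. HMGB proteins bend DNA, and HMGN proteins bind nucleosomes and compete with H1. The mRNA kit named in the labels selects poly(A) tails, so the CPM of a Hist gene should count mainly the polyadenylated form. How far messages without a tail also came through was not tested, and total histone mRNA was not measured.

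The stem-loops are shown because they separate the Hist genes from the other members and because they bear on what a poly(A) library can count. In the GENCODE vM21 transcripts the histone stem-loop consensus, searched on the sense strand, was found in 15 of the 16 Hist members, Hist1h2bc being the exception. It was in 46 of all 67 Hist protein-coding genes (68.7%) and in 1 of the 14 other members, H2afx. In the lines that follow the capitals mark the stem-loop and the small letters are the bases beside it, written 5′ to 3′ as DNA.
Hist1h4i: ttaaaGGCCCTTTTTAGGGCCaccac
Hist1h3b: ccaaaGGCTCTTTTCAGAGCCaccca
Hist1h2be: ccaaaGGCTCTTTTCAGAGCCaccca
Hist1h1c: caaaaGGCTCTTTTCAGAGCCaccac
H2afx: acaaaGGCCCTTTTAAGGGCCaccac
The capitals of Hist1h3b, Hist1h2be and Hist1h1c were the same, and 11 Hist members shared them. Annotated transcripts of the Hist members ran on for a median of 330 bases past the stem-loop (range 3 to 4884), and 10 of 15 ran on for 100 bases or more. In the other 31 Hist genes that hold the stem-loop the median was 47 bases, and 13 ran on for 100 or more. AATAAA, the polyadenylation signal, followed the stem-loop in 7 of the 15 members. Of the Hist members 14 lie on chromosome 13, Hist2h3c1 on chromosome 3 and Hist3h2a on chromosome 11.

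With doxorubicin the Hist genes and the HMGB genes lay on opposite sides of mock. All 8 Hist genes in both tables lay higher after doxorubicin in both genotypes, while both HMGB genes, Hmgn2, Hmgn3 and most H2A variant genes lay lower. Differences are given as log2 of the CPM plus 1, with the standard error (SE) and a p from limma adjusted by the Benjamini-Hochberg method over all genes of the fit. A gene is called at an adjusted p under 0.05. In bulk RNA, fewer cells of a type and less RNA per cell cannot be told apart.

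Hist1h4i, which encodes an H4, had the largest rise. It was at 2.93, 3.61 and 3.82 CPM in WT mock cells and 35.2, 36.1 and 34.1 CPM in WT doxorubicin cells. KO cells held 2.55, 3.79 and 2.71 CPM in mock and 19.7, 18.5 and 24.8 CPM after doxorubicin. All doxorubicin libraries were above all mock libraries, and after doxorubicin all WT libraries were above all KO libraries. The rise was 3.03 in WT (SE 0.16, limma adjusted p 1.87e-06) and 2.46 in KO (SE 0.16, adjusted p 1.26e-05), with means 10.2 and 6.97 times those of mock.

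The other core histone genes of the Hist group had smaller differences. Hist1h3b, an H3 gene, was at 3.07, 6.56 and 2.95 CPM in WT mock and 23.4, 34.9 and 18.1 CPM in WT doxorubicin, against 2.04, 4.75 and 1.47 CPM and 9.79, 19.3 and 9.91 CPM in KO. Replicate 2 was the highest of its group in all 4 groups, and mock and doxorubicin libraries did not overlap. The rise was 2.37 in WT (SE 0.39, limma adjusted p 0.000588) and 1.93 in KO (SE 0.39, adjusted p 0.0033). Hist1h2be, an H2B gene, was at 2.16, 2.51 and 2.84 CPM in WT mock and 12.9, 13.5 and 19.3 CPM in WT doxorubicin. In KO it was at 1.02, 1.57 and 1.86 CPM and 8.06, 9.31 and 13.3 CPM. Every doxorubicin library was above every mock library, with rises of 2.20 in WT (SE 0.22) and 2.16 in KO (SE 0.22), at limma adjusted p of 3.64e-05 and 8.08e-05. Hist3h2a, an H2A gene, was at 2.51, 3.16 and 4.22 CPM in WT mock and 13.4, 17.7 and 15.6 CPM in WT doxorubicin. KO libraries were at 2.42, 2.48 and 3.1 CPM in mock and 7.17, 7.52 and 8.97 CPM after doxorubicin. All 3 KO doxorubicin libraries were under all 3 of WT, and all were above mock. The rises were 1.96 in WT (SE 0.18, limma adjusted p 2.62e-05) and 1.28 in KO (SE 0.18, adjusted p 0.000472).

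Hist1h2bc, an H2B gene and the only Hist member without the stem-loop, was at 62.2, 55.3 and 74.5 CPM in WT mock and 116, 119 and 124 CPM in WT doxorubicin. In KO it was at 41.3, 41.2 and 64.6 CPM and 98.3, 101 and 124 CPM. Groups did not overlap within a genotype, and the rises were 0.90 (SE 0.18, limma adjusted p 0.00169) and 1.15 (SE 0.18, adjusted p 0.000751). Hist2h3c1, an H3 gene, was at 17.7, 15.3 and 23.5 CPM in WT mock and 29.6, 30.2 and 37.2 CPM in WT doxorubicin, and at 9.36, 9.55 and 22.2 CPM and 23.2, 22.7 and 33.1 CPM in KO. Replicate 3 was the highest of every group, and doxorubicin libraries were above the mock libraries of their genotype. Its rise in KO was 0.98 (SE 0.29, limma adjusted p 0.0236). That call was lost without KO mock replicate 1, KO mock replicate 2 or KO doxorubicin replicate 3 (adjusted p 0.0915, 0.0864 and 0.0928). In WT the difference of 0.76 missed the threshold (limma adjusted p 0.0517) and passed when the replicate number was a block (0.00192).

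Both linker histones of the Hist group rose as well. Hist1h1c, which encodes H1.2, was at 119, 93.3 and 97.6 CPM in WT mock and 268, 168 and 142 CPM in WT doxorubicin, and at 83.6, 65.6 and 85.7 CPM and 217, 180 and 153 CPM in KO. Replicate 1 was the highest of both doxorubicin groups, and no doxorubicin library fell among those of mock. The rises were 0.85 in WT (SE 0.22, limma adjusted p 0.00823) and 1.21 in KO (SE 0.22, adjusted p 0.00186). Hist1h1d, which encodes H1.3, was at 2.65, 3.66 and 3.65 CPM in WT mock and 13.9, 8 and 8.96 CPM in WT doxorubicin. KO libraries were at 1.97, 2.12 and 4.17 CPM and 10.7, 8.78 and 10.6 CPM. Mock and doxorubicin again did not overlap, and the rises were 1.36 (SE 0.25, limma adjusted p 0.00112) and 1.60 (SE 0.25, adjusted p 0.000795). The third linker histone, H1fx, is a variant with a polyadenylated message. It was at 5.37, 5.61 and 5.27 CPM in WT mock and 3.96, 11.2 and 6.74 CPM in WT doxorubicin, and at 8.02, 7.12 and 6.48 CPM and 2.69, 5.37 and 3.4 CPM in KO. The WT libraries overlapped and those of KO did not. Neither difference was called, 0.27 in WT (limma adjusted p 0.461) and -0.80 in KO (adjusted p 0.0519), although that of KO passed with the replicate block (adjusted p 0.015), at a pseudocount of 0.25 (0.0491) and with median centring (0.0366). It also passed without WT doxorubicin replicate 1 (limma adjusted p 0.02) or 2 (0.0194) or KO doxorubicin replicate 2 (0.0319).

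**Figure D1:**
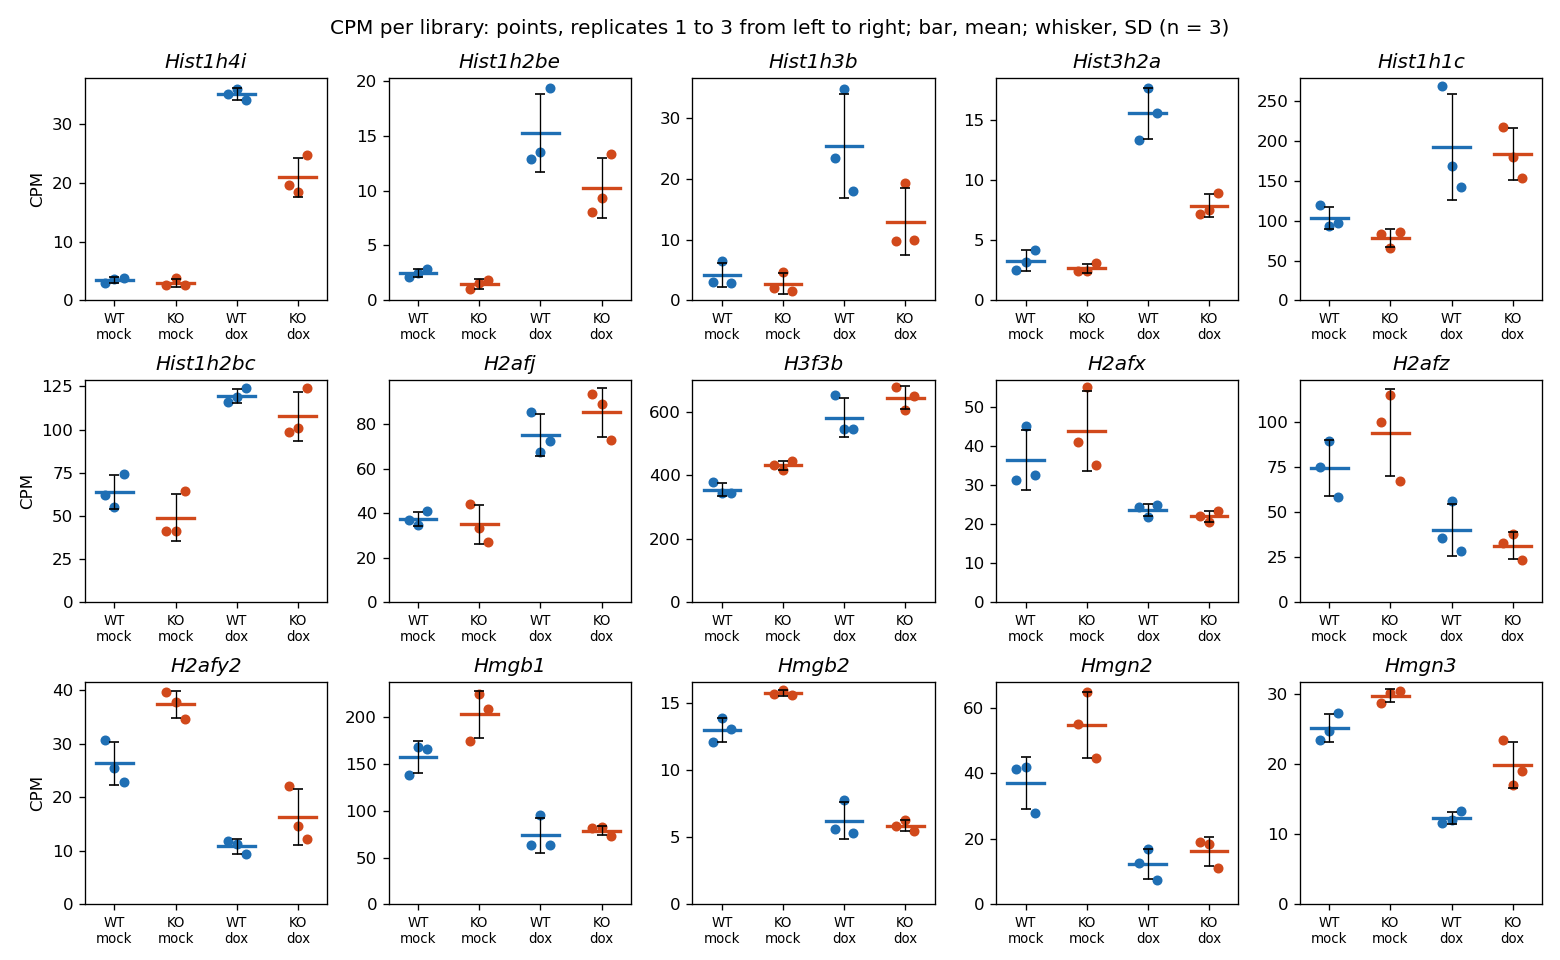
CPM of 15 histone, HMGB and HMGN genes in each of the 12 libraries, with mock on the left and doxorubicin on the right, WT before KO in each. Points are replicates 1 to 3 from left to right, bars are means and whiskers SD (n = 3), and the axes start at 0. The Hist genes, H2afj and H3f3b are higher in both doxorubicin groups than in mock of the same genotype, and H2afx, H2afz, H2afy2, Hmgb1, Hmgb2, Hmgn2 and Hmgn3 are lower.

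Among the H2A variants H2afj alone was called higher, and 4 were called lower in WT and 3 in KO. It encodes H2A.J, a variant known from human fibroblasts to build up in senescence with lasting DNA damage. It was at 36.8, 34.7 and 40.9 CPM in WT mock and 85.6, 67.4 and 72.3 CPM in WT doxorubicin, and at 44.4, 33.5 and 27.1 CPM and 93.7, 89.2 and 73 CPM in KO. Every doxorubicin library was above every mock library. The rise was 0.98 in WT (SE 0.17, limma adjusted p 0.00092) and 1.28 in KO (SE 0.17, adjusted p 0.000362).

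H2afz and H2afv both encode H2A.Z, which marks promoters and enhancers. H2afz was at 75.1, 89.8 and 58.6 CPM in WT mock and 35.8, 56.5 and 28.6 CPM in WT doxorubicin, and at 100, 115 and 67.5 CPM and 32.9, 38.1 and 23.5 CPM in KO. WT doxorubicin replicate 2 lay just under the lowest WT mock library, and in KO the groups were far apart. H2afz fell by 0.91 in WT (SE 0.28, limma adjusted p 0.0204) and by 1.55 in KO (SE 0.28, adjusted p 0.0019). The WT call was lost without WT mock replicate 1 or 2 or WT doxorubicin replicate 1 or 3, with adjusted p of 0.0531, 0.0755, 0.0557 and 0.0866. H2afv was at 19.8, 16.7 and 20.1 CPM in WT mock and 13.7, 14.4 and 10.9 CPM in WT doxorubicin, and at 28.7, 22.3 and 24.9 CPM and 22.9, 16.6 and 15.2 CPM in KO. It fell by 0.51 in WT (SE 0.18, limma adjusted p 0.033), a call lost without WT mock replicate 1 or 3 or WT doxorubicin replicate 3 (0.0911, 0.0958 and 0.12). The WT groups did not overlap. Groups overlapped in KO, where the difference of -0.46 missed the threshold (limma adjusted p 0.0612). It passed with the replicate block (adjusted p 0.0177), with median centring (0.0258), under quantile normalization (0.0261) and without KO doxorubicin replicate 1 (0.0185).

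H2afx encodes H2A.X, whose tail is phosphorylated beside DNA breaks. It was at 31.4, 45.1 and 32.5 CPM in WT mock and 24.3, 21.8 and 24.8 CPM in WT doxorubicin, and at 41, 55 and 35.2 CPM and 22, 20.6 and 23.3 CPM in KO. Mock replicate 2 was the highest library of both genotypes, and the groups did not overlap. It fell by 0.58 in WT (SE 0.18, limma adjusted p 0.0192) and by 0.94 in KO (SE 0.18, adjusted p 0.00238). Without WT mock replicate 2 or WT doxorubicin replicate 2 the WT call was lost (adjusted p 0.0832 and 0.0566). The macroH2A genes encode large variants found on silent chromatin. H2afy2, which encodes macroH2A2, was at 30.6, 25.4 and 22.9 CPM in WT mock and 11.9, 11.2 and 9.35 CPM in WT doxorubicin, and at 39.7, 37.7 and 34.6 CPM and 22.1, 14.6 and 12.2 CPM in KO. Doxorubicin libraries were all under mock libraries, and it fell by 1.20 in WT (SE 0.20, limma adjusted p 0.000607) and by 1.19 in KO (SE 0.20, adjusted p 0.00121). H2afy, which encodes macroH2A1, was at 108, 116 and 96.2 CPM in WT mock and 115, 92 and 94.8 CPM in WT doxorubicin, and at 127, 134 and 102 CPM and 108, 105 and 101 CPM in KO. Its groups overlapped and its differences of -0.09 and -0.20 were not called (limma adjusted p 0.603 and 0.251); whether the change of one macroH2A gene differed from that of the other was not tested.

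H3f3a and H3f3b encode the same protein, H3.3, which can be placed into chromatin outside S phase as well as within it. H3f3b was at 379, 343 and 343 CPM in WT mock and 654, 546 and 545 CPM in WT doxorubicin, and at 431, 417 and 446 CPM and 678, 605 and 650 CPM in KO. Every doxorubicin library was above every mock library, and it rose by 0.71 in WT (SE 0.10, limma adjusted p 0.000237) and 0.58 in KO (SE 0.10, adjusted p 0.00146). H3f3a was at 80.8, 71.5 and 68.4 CPM in WT mock and 73.9, 107 and 76.9 CPM in WT doxorubicin, and at 92.1, 82.2 and 80.3 CPM and 88.6, 88.6 and 68.9 CPM in KO. WT doxorubicin replicate 2 stood above the other libraries, the rest overlapped, and neither difference was called (0.20 and -0.06, limma adjusted p 0.291 and 0.806).

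The HMGB genes fell in both genotypes. Hmgb1, which encodes a DNA-bending protein that is also released from damaged cells as an alarm signal, was at 138, 168 and 166 CPM in WT mock and 63.3, 95.2 and 63 CPM in WT doxorubicin. KO libraries held 175, 225 and 209 CPM in mock and 81.4, 82.3 and 73 CPM after doxorubicin. WT doxorubicin replicate 2 was the highest of the doxorubicin libraries and still under all of mock. Hmgb1 fell by 1.10 in WT (SE 0.16, limma adjusted p 0.000312) and by 1.35 in KO (SE 0.16, adjusted p 0.000212). Hmgb2, a close relative known to leave chromatin in senescing cells, was at 12.1, 13.9 and 13.1 CPM in WT mock and 5.62, 7.8 and 5.29 CPM in WT doxorubicin, and at 15.7, 16 and 15.6 CPM and 5.82, 6.31 and 5.47 CPM in KO. Doxorubicin and mock were again fully apart, and it fell by 0.97 in WT (SE 0.15, limma adjusted p 0.000387) and by 1.29 in KO (SE 0.15, adjusted p 0.000174).

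Of the HMGN genes, which encode nucleosome-binding proteins, Hmgn2 fell the furthest. It was at 41.3, 42.1 and 27.8 CPM in WT mock and 12.6, 16.9 and 7.57 CPM in WT doxorubicin, and at 55, 64.9 and 44.8 CPM and 19.1, 18.5 and 11 CPM in KO. Replicate 3 was the lowest of every group, and doxorubicin never reached mock. It fell by 1.55 in WT (SE 0.29, limma adjusted p 0.00135) and by 1.72 in KO (SE 0.29, adjusted p 0.00128). Hmgn3 was at 23.5, 24.7 and 27.3 CPM in WT mock and 11.6, 12.1 and 13.3 CPM in WT doxorubicin, and at 28.7, 30.1 and 30.5 CPM and 23.5, 17.1 and 19.1 CPM in KO. After doxorubicin every KO library was above every WT library, and within a genotype doxorubicin and mock did not overlap. It fell by 0.97 in WT (SE 0.13, limma adjusted p 0.000212) and by 0.57 in KO (SE 0.13, adjusted p 0.00759). Hmgn1 was at 293, 301 and 310 CPM in WT mock and 355, 330 and 406 CPM in WT doxorubicin, and at 334, 358 and 330 CPM and 352, 389 and 385 CPM in KO. In WT it rose by 0.27 (limma adjusted p 0.0385), a call lost when each library's median was set equal (0.15, adjusted p 0.22), under quantile normalization (0.22, adjusted p 0.0655) and in 6 of 12 fits that left out 1 library. Its KO difference of 0.14 was not called (adjusted p 0.283).

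In all, doxorubicin changed 18 of the 22 members in WT, 10 higher and 8 lower (limma, Benjamini-Hochberg). Of all 10292 genes in both tables, limma called 47.3%, with 25.9% higher and 21.4% lower. In KO 17 of 22 members were called, 10 higher and 7 lower, where 34.5% of all genes were, 19.9% higher and 14.6% lower. Called in the same direction in both genotypes were 9 members that rose, the Hist genes other than Hist2h3c1 with H2afj and H3f3b, and 7 that fell, H2afx, H2afy2, H2afz, Hmgb1, Hmgb2, Hmgn2 and Hmgn3. The genotypes had separate mock libraries, but both comparisons came from the same fit of all 12 libraries, with a shared spread for each gene. Libraries of the same replicate number were also correlated between the genotypes, so the comparisons are not independent. Over all genes 1855 rose and 1283 fell in both. The median difference of the 8 Hist genes was 1.66 in WT and 1.44 in KO, beside 0.01 and 0.04 over all genes. The median of the 14 other members was -0.55 in WT and -0.69 in KO. Setting the library medians equal, which moves the median of all genes to -0.10 in WT and -0.05 in KO, turned the share of higher among all calls from 54.8% to 42.8% in WT and from 57.8% to 45.2% in KO. Under quantile normalization that share was 45.4% in WT and 49.8% in KO. Libraries of mock and doxorubicin did not overlap for 19 of 22 members in WT, where 54.8% of all genes did not, and for 18 of 22 in KO, where 48.6% did not. With the replicate number as a block limma called 19 of 22 members in each genotype, where 63.7% of all genes were called in WT, 33.6% higher, and 53.7% in KO. The Hist genes stayed above and the HMGB genes below mock under both scalings.

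**Figure D2:**
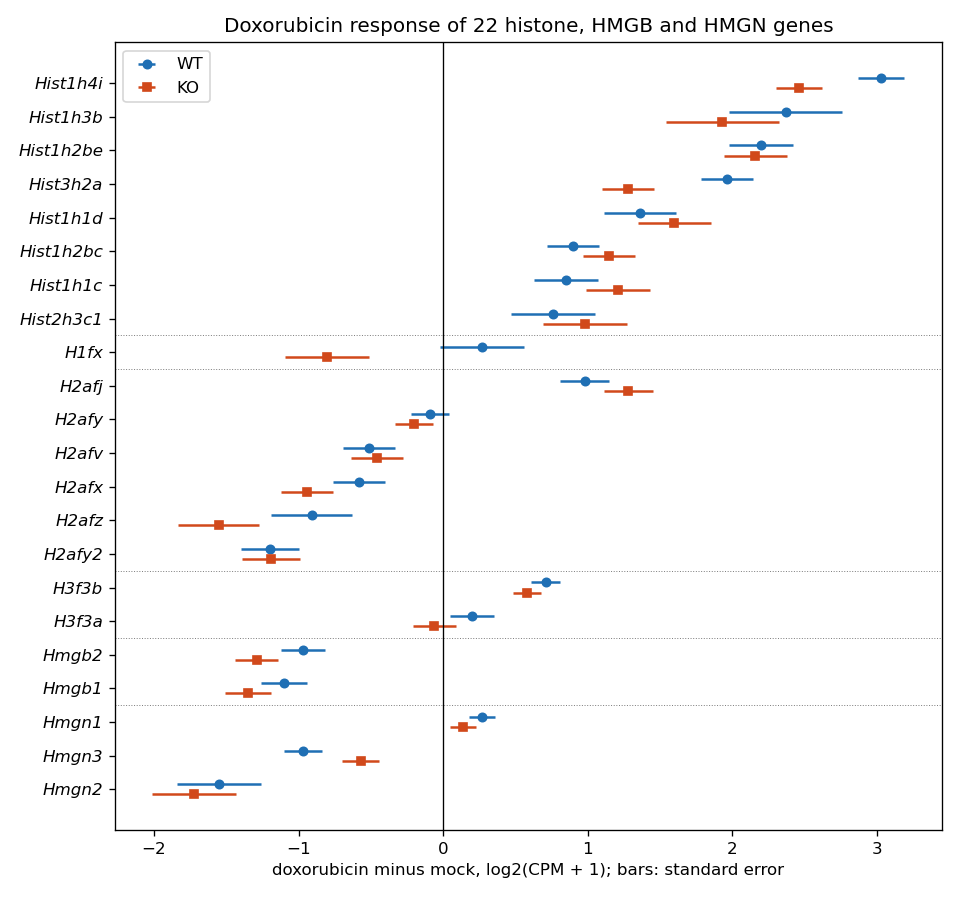
Doxorubicin minus mock for the 22 genes in both tables, on the log2(CPM + 1) scale, with points for WT and squares for KO and bars of 1 SE. The 8 Hist genes lie to the right of 0 in both genotypes, from 0.76 to 3.03 in WT, and the HMGB genes to the left, from -0.97 to -1.35.

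The level of several members could include reads of near-identical genes, and how the authors counted reads that match several genes is not given in the sources used here. Stretches of 50 bases shared exactly with another gene made up 100% of the Hist2h3c1 transcripts, 60.4% of those of Hist1h3b, 28.9% for Hist1h4i and 17.5% for Hist1h2be. For Hmgn2 the share was 41.2%, for H2afz 30.5%, for Hmgb1 23.5% and for Hmgb2 21.2%. For H1fx, H2afv, H2afy and Hmgn3 it was 0. The Hist values are thus uncertain as to which copy of a gene gave the reads.

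The promoters of 4 members are shown because H2afz and Hmgb2 fell while H2afj and Hist1h3b rose, and all 4 hold CCAAT boxes, the site of the factor NF-Y. Sequences are the 300 bases from 250 before to 50 after the start that RefSeq gives on GRCm38.p6, on the plus strand, and capitals mark the motifs named below. They are Hmgb2 at chr8:57511593-57511892, H2afz at chr3:137864237-137864536, H2afj at chr6:136807998-136808297 and Hist1h3b at chr13:23752095-23752394.
Hmgb2: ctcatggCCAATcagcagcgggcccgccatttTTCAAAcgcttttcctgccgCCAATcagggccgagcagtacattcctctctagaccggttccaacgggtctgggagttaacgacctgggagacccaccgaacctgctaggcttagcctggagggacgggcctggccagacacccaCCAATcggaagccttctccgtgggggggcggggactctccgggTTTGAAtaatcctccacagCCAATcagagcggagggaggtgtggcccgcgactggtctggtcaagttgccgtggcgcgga
H2afz: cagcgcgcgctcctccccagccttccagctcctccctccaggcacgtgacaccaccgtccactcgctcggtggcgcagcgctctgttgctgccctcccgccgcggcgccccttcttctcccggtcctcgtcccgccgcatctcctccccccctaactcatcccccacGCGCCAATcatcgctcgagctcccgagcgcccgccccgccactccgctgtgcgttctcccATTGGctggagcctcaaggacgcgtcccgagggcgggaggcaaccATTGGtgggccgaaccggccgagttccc
H2afj: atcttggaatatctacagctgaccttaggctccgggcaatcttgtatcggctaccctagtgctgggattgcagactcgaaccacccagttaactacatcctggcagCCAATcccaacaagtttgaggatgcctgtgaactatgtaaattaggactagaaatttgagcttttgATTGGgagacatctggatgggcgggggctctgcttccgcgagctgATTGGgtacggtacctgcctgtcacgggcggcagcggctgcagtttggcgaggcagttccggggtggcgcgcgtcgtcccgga
Hist1h3b: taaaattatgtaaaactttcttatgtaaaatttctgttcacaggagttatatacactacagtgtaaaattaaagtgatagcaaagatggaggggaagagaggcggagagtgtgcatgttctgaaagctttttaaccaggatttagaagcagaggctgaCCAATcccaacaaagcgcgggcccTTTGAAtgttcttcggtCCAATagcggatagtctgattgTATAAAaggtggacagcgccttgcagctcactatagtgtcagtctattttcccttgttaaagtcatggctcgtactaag
RefSeq promoters were found for 27 of the 30 members, 29 promoters in all, and motifs were sought on both strands. CCAAT was in 13 of 16 promoters of Hist members and in 10 of 13 of the other members, against 37.4% of all 32851 promoters of the same length. TATAAA, the TATA box, was in 9 of 16 and 1 of 13, against 13.6%. The cell cycle homology region, searched as TTTGAA or TTTCGAA, was in 7 of 16 and 2 of 13, against 18.5%. TTTGCAT, the octamer known to drive H2B genes, was in 5 of 16 and 1 of 13, against 4.63%. An E2F site, searched in the form TTGGCGC, in the form TTCCCGC and in the form TTCGCGC, was in 2 of 16 and 3 of 13, against 8.07%. In H2afz the E2F match overlaps a CCAAT box. The 4 promoters shown were chosen for their CCAAT boxes, so their presence in members that rose and fell follows from the choice. CCAAT was absent from the promoter of Hist1h4i, which had the largest rise, and from 1 promoter of Hmgb1, which fell. A match of letters does not show that a factor is bound.

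Of 16 measured genes for the transcription and 3′ processing of histone mRNA, 0 were called higher in either genotype without the block, 6 were lower in WT and 5 in KO, with medians of -0.25 and -0.35. With the replicate block 1 was higher and 7 were lower in WT, and 0 and 8 in KO, the higher gene being Sympk at 0.20 (limma adjusted p 0.0401). Over all genes 25.9% were called higher and 21.4% lower in WT, and 19.9% and 14.6% in KO, without the block. With the block 33.6% were higher and 30.1% lower in WT, and 29.6% and 24% in KO. Nothing particular to this list or the following ones is read from their counts. Slbp, the stem-loop binding protein, fell by 0.59 in WT (limma adjusted p 0.00538), and its KO difference of -0.39 was at an adjusted p of 0.05 and not called, and passed with the replicate block (0.00634). Ccne1, whose cyclin E activates histone gene transcription with Cdk2, fell by 1.48 in WT and 2.00 in KO (adjusted p 0.0164 and 0.00525). Cdk2 fell by 1.20 and 0.96, Lsm11 of the U7 particle by 0.95 and 0.92, and Srrt by 0.66 and 0.48. Npat, the coactivator of Hist genes, differed by -0.03 in WT and -0.15 in KO and was not called.

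Histone chaperones and exchange factors, 28 genes, gave 5 higher and 11 lower calls in WT, beside 25.9% and 21.4% of all genes. In KO they gave 3 and 12, beside 19.9% and 14.6%. With the replicate block 5 were higher and 16 lower in WT, beside 33.6% and 30.1% of all genes, and 3 and 17 in KO, beside 29.6% and 24%. Dnajc9, an H3-H4 co-chaperone, rose by 1.97 in WT and 1.15 in KO (limma adjusted p 4.74e-05 and 0.00185). Mcm2, a helicase subunit that binds H3-H4, fell by 2.05 in both genotypes. Chaf1a, a subunit of the chaperone that works behind replication forks, fell by 1.51 and 1.56. Hjurp, the chaperone of the centromere histone, fell by 1.36 and 1.49. Among 15 genes for H2A.X phosphorylation and its readers 1 was higher and 3 lower in WT, and 1 and 4 in KO. With the replicate block 1 was higher and 6 lower in WT, and 2 and 7 in KO. The higher gene without the block was Ppm1d, a p53 target that removes the H2A.X phosphate, with rises of 1.79 and 1.14. Brca1 fell by 1.35 and fell by 2.03, Mdc1 by 0.73 and 0.70, and Mcph1 by 0.69 and 0.75. Of 12 other genes with an HMG box or AT-hook 2 were higher and 3 lower in each genotype, and with the replicate block 3 and 5 in WT and 3 and 3 in KO. Of the 4 with the largest differences in WT, Ssrp1, a subunit of the chaperone FACT that also counts among the chaperones, fell by 0.96 in WT and 0.81 in KO. Pbrm1 fell by 0.57 and 0.61, and Hmg20b rose by 0.60 and 0.56. Hmga1 differed by 0.78 and 0.70 and was not called (limma adjusted p 0.152 and 0.225), although both passed with the replicate block (0.0142 and 0.0281).

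Most proliferation genes fell with doxorubicin while the Hist genes rose. Of 21 measured in both tables, Mcm2 among them, 13 were called lower and 1 higher in WT, beside 21.4% and 25.9% of all genes. In KO 19 were lower and 0 higher, beside 14.6% and 19.9%. The medians were -1.37 in WT and -2.46 in KO. With the replicate block 18 were lower and 2 higher in WT, beside 30.1% and 33.6% of all genes. In KO 20 were lower and 0 higher with it, beside 24% and 29.6%. Top2a fell by 3.75 in WT and 3.97 in KO, and Mki67, which encodes Ki-67, by 2.31 and 3.61. Their summed level was 1080, 1610 and 1120 CPM in WT mock and 386, 1120 and 520 CPM in WT doxorubicin, and 1490, 2270 and 1260 CPM in KO mock and 333, 532 and 359 CPM in KO doxorubicin. WT doxorubicin replicate 2 reached the level of mock, and it was also the highest doxorubicin library for H2afz, Hmgb1, Hmgb2, H1fx and H3f3a. Among the Hist genes it was the highest for Hist1h3b, Hist1h4i, Hist3h2a, Hist1h2ab, Hist1h2ac and Hist1h4a. The sum of the 8 Hist genes was 213, 183 and 213 CPM in WT mock and 512, 428 and 400 CPM in WT doxorubicin, and 144, 131 and 186 CPM in KO mock and 394, 367 and 378 CPM in KO doxorubicin. The doxorubicin libraries were all above mock in that sum. The part of proliferation in the changes of the members was not tested. Cdkn1a, the p53 target of reference, rose by 1.15 in WT and 1.78 in KO (limma adjusted p 6.93e-05 and 1.99e-05).

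**Figure D3:**
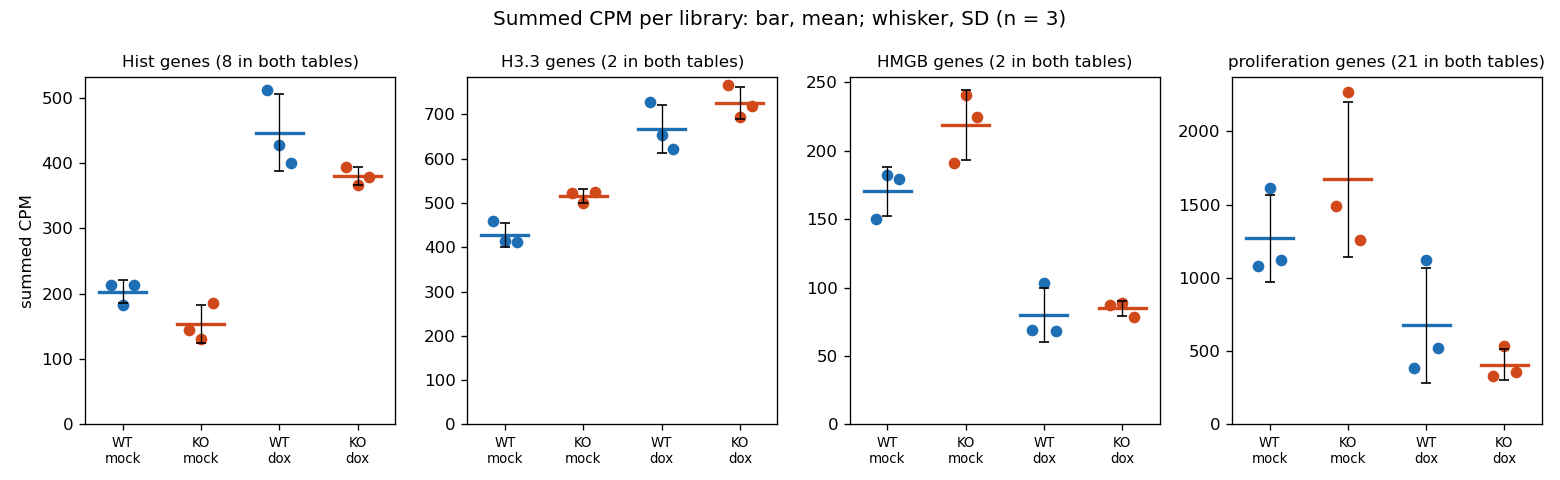
Summed CPM in each library for the 8 Hist genes, the H3.3 genes, the HMGB genes and the 21 proliferation genes measured in both tables, with bars for means and whiskers for SD (n = 3). Hist sums run from 131 to 213 CPM in mock and from 367 to 512 CPM after doxorubicin, while proliferation sums run from 1080 to 2270 CPM in mock and from 333 to 1120 CPM after doxorubicin.

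Markers of the labelled cell type were present, and some moved with the drug. Of 12 fibroblast markers 11 were measured in both tables, and they had summed levels of 59200 to 68300 CPM (WT) and 50900 to 63700 CPM (KO) in mock, against 33900 to 41600 CPM (WT) and 31400 to 39700 CPM (KO) after the drug. With doxorubicin 5 of them were called lower in WT and 4 in KO. Of all genes 21.4% were called lower and 25.9% higher in WT, and 14.6% and 19.9% in KO. Nothing particular to a marker list is read from the counts. Few markers of other cells were measured in both tables. Of 10 blood markers it was Cd68 alone, at 2.84 to 29.2 CPM (WT) and 2.42 to 58.3 CPM (KO) in mock, against 49.2 to 126 CPM (WT) and 45.4 to 112 CPM (KO) after the drug, called higher in WT. Of 6 endothelial markers Kdr alone was measured, at 3.7 to 4.47 CPM (WT) and 2.26 to 7.68 CPM (KO) in mock, against 29.6 to 30.8 CPM (WT) and 24.7 to 35 CPM (KO) after the drug, called higher in both. Of 8 epithelial markers Krt18 alone was measured, at 0.958 to 24.8 CPM, with no call. The skeletal muscle markers, 2 of 7, had summed levels of 75.9 to 434 CPM (WT) and 30.9 to 182 CPM (KO) in mock, against 44.6 to 204 CPM (WT) and 22.6 to 52.6 CPM (KO) after the drug, with Des called higher in WT. Adipocyte markers, 3 of 6, gave 2 higher calls in WT and 1 in KO, and neural markers, 2 of 5, gave 0. With the replicate block 30.1% of all genes were called lower and 33.6% higher in WT, and 24% and 29.6% in KO. More markers were called too, with 8 fibroblast markers lower in WT and 7 in KO. Cd68 was then higher in KO as well (limma adjusted p 0.0017) and Krt18 higher in WT (0.03). Des was then higher and Acta1 lower in both genotypes, and 2 adipocyte markers were higher in each. The neural marker Nes was higher in both genotypes with the block (0.0155 and 0.0436) and Tubb3 in WT (0.0054). Their part in the changes of the members was not tested.

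Between the genotypes in mock, the Hist genes lay lower in KO and the other members higher, by small amounts that passed no test without the block. The difference of KO minus WT was below 0 for 8 of 8 Hist genes, with a median of -0.40, and above 0 for 13 of the 14 others, with a median of 0.27, beside a median of 0.06 over all genes. Of all 10648 genes 7094 lay above 0 and 3554 below. Limma called 0 of 22 members and 0 of all 10648 genes (0%), and at an unadjusted p under 0.05 there were 8 members and 440 genes. With the replicate number as a block, limma called 2 of 22 members, Hmgb1 (0.36, SE 0.05, adjusted p 0.0463) and Hmgn2 (0.56, SE 0.07, adjusted p 0.0457), both higher in KO, where 0.92% of all genes were called and 0.563% higher. These calls changed with the pairs: 0 members were called without pair 1 and 0 without pair 2, and 15 without pair 3, where 2438 of all genes were.

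Libraries of the genotypes did not overlap for 11 of 22 members in mock, where 9.98% of all genes did not. Higher in every KO library were 9, H1fx, H2afv, H2afy2, H3f3b, Hmgb1, Hmgb2, Hmgn1, Hmgn2 and Hmgn3, which 8.25% of all genes were. Lower in every KO library were Hist1h1c and Hist1h2be, which 1.74% of all genes were. Within pairs of the same replicate number, 6 of 8 Hist genes were lower in KO in all 3 pairs, as were 11.9% of all genes, and 13 of 14 other members were higher in all 3, as were 35.3%. The exception was H2afj, higher in pair 1 and lower in pairs 2 and 3. Among the Hist genes the largest differences were -0.52 for Hist2h3c1 (SE 0.34), -0.51 for Hist1h2be (SE 0.20) and -0.50 for Hist1h3b (SE 0.40). Hist1h2be lay at or under 2 CPM in all 3 KO libraries, and a gene that low in WT would not have been listed. Hist1h1d and Hist1h3b each had a KO library under 2 CPM, so the listing in part sets the Hist counts in mock. Proliferation genes moved with the genotype in mock too, with 25 of 25 above 0 in KO, beside 7094 of all 10648 genes. Their median was 0.43, and 2 of the 25 were called higher with the block, beside 0.563% of all genes. Their part was not tested.

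After doxorubicin the Hist genes again lay lower in KO. All 16 were below 0, with a median of -0.53 beside 0.03 over all 11125 genes, although Hist1h1d was at -0.00 and Hist1h1c at -0.03. Of all genes 5091 lay below 0. Limma without the block called 0 of 30 members and 0 of all genes (0%), with 7 members and 1246 genes at an unadjusted p under 0.05. With the replicate block limma called 12 of 30 members, 2 higher and 10 lower in KO, where 25.3% of all genes were called, 11.8% higher and 13.6% lower. The 10 lower were 9 Hist genes and H1fx. In all 3 pairs 13 of 16 Hist genes were lower in KO, beside 27.6% of all genes. Hist1h2bj, Hist1h4a and Hist1h4m had KO libraries at or under 2 CPM and were listed through their WT level. The listing thus in part sets the Hist counts given here, and no conclusion is drawn from them.

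The strongest of these was Hist1h3b, at 23.4, 34.9 and 18.1 CPM in the WT libraries and 9.79, 19.3 and 9.91 CPM in those of KO, in replicate order. Every KO library was under the WT library of its number, although the groups overlapped. The difference was -0.94 (block SE 0.12, limma adjusted p 0.00624 with the block and 0.443 without). Hist1h2bj, an H2B gene, was at 2.57, 2.44 and 3.12 CPM in the WT libraries and 0.64, 1.26 and 0.986 CPM in those of KO, with no overlap, and differed by -0.93 (block SE 0.18, adjusted p 0.0138). Its KO libraries lay under the 2 CPM that a gene had to exceed in WT to be listed. Hist1h2ab, an H2A gene, was at 13.1, 17.6 and 10.4 CPM in the WT libraries and 5.5, 10.8 and 4.98 CPM in those of KO, and differed by -0.90 (block SE 0.14, adjusted p 0.00814). The highest KO library was above the lowest of WT, and every pair was lower in KO. Hist3h2a differed by -0.90 (block SE 0.13, adjusted p 0.00746) and Hist1h4i by -0.72 (block SE 0.12, adjusted p 0.00987), and for both every KO library was under every WT library. The means of Hist1h3b, Hist3h2a and Hist1h4i in WT were 25.5, 15.6 and 35.1 CPM, well above the level of selection.

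The other Hist genes called lower with the block were Hist1h2ac, Hist1h2be, Hist1h3d and Hist1h4h, with differences from -0.53 to -0.66. Hist1h2ac had a level of 5.49 ± 1.64 CPM in WT against 3.1 ± 0.965 CPM in KO (mean ± SD, n = 3), Hist1h3d at 11.2 ± 3.39 and 7.64 ± 3.24 CPM, and Hist1h4h at 9.26 ± 1.26 and 6.14 ± 1.81 CPM. Not called were Hist1h4a at 3.16 ± 0.498 and 1.9 ± 0.458 CPM, Hist1h4m at 2.83 ± 0.239 and 1.87 ± 0.263 CPM, Hist1h2bg at 5.03 ± 0.682 and 4.66 ± 1.26 CPM, and Hist1h1c, Hist1h1d, Hist1h2bc and Hist2h3c1. The Hist genes with no overlap, all lower in KO, were Hist1h2bj, Hist1h4a, Hist1h4i, Hist1h4m and Hist3h2a, 5 of 16 beside 6.64% of all genes. Of these, Hist1h2bj, Hist1h4a and Hist1h4m had KO libraries at or under 2 CPM and were listed through their WT level, so the listing in part sets this count and nothing is read from it.

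Outside the Hist genes, H1fx was at 3.96, 11.2 and 6.74 CPM in the WT libraries and 2.69, 5.37 and 3.4 CPM in those of KO and was lower by -0.72 on the log2 scale with the block (SE 0.16, limma adjusted p 0.0205). Hmgn3 was higher in every KO library, by 0.64 (block SE 0.14, adjusted p 0.0204), and so was H2afy2, by 0.51 (block SE 0.14, adjusted p 0.0396). H2afv was also higher in every KO library, by 0.45, at an adjusted p of 0.0501 that missed the threshold. Higher without overlap were thus 3 of 30 members, beside 9.7% of all genes. The HMGB genes, H2afx, H2afy, H3f3a and Hmgn1 differed by -0.10 to 0.12 and were not called, nor were H2afj, H3f3b and Hmgn2 at 0.15 to 0.39 and H2afz at -0.32.

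The calls with the block depended on the pairs. Without pair 1 they numbered 3 (H1fx, Hist1h3b and Hist3h2a), without pair 2 they numbered 11 and without pair 3 they numbered 8. Of all 11125 genes 692, 2590 and 1560 were called in these fits, beside 2820 with all pairs, so the loss was not particular to the members. Hist1h3b and Hist3h2a were called in all 3 of these fits, with adjusted p of 0.0379, 0.00875 and 0.00197 for Hist1h3b and 0.0415, 0.0131 and 0.00467 for Hist3h2a. Hist1h4i was lost without pair 1 (adjusted p 0.0583), as was Hmgn3 (0.0961). Of 21 proliferation genes 19 were below 0 in KO, beside 5091 of all 11125 genes, with a median of -0.50. With the block 11 of them were called lower and 0 higher, beside 13.6% and 11.8% of all genes. That list moved with the Hist genes here, whereas in mock it lay above 0 where the Hist genes lay below, and its part was not tested.

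**Figure D4:**
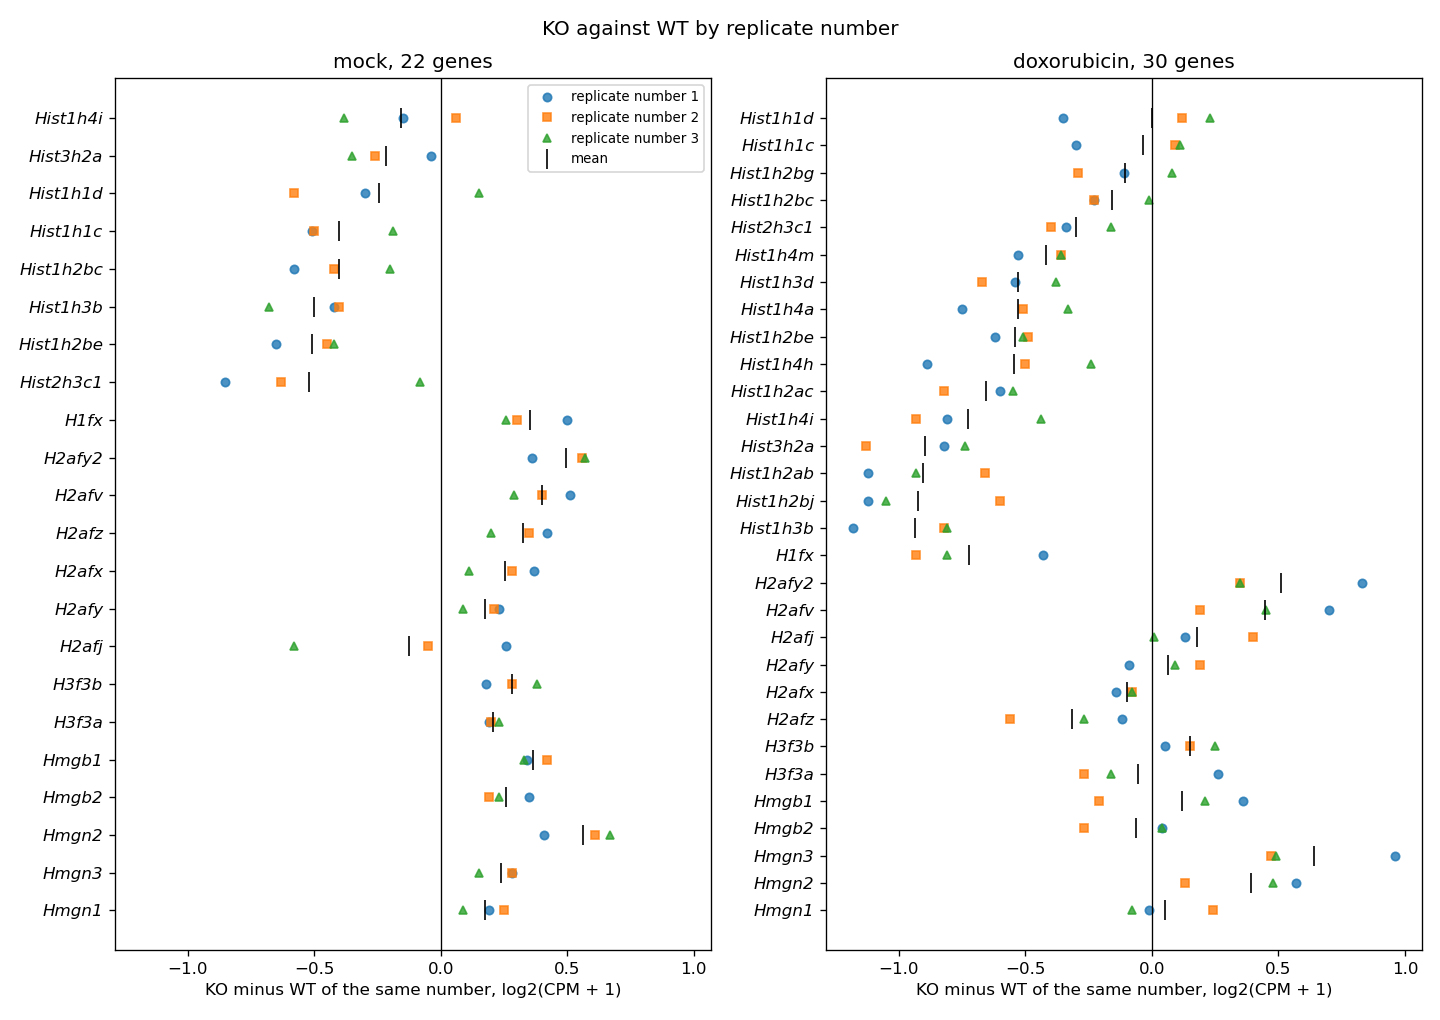
KO minus WT of the same replicate number on the log2(CPM + 1) scale for the 22 genes listed in mock (left) and the 30 listed for doxorubicin (right), with a symbol for each number and a line for the mean. In mock the Hist genes lie mostly left of 0 and the other genes right of it, and after doxorubicin 13 of 16 Hist genes have all 3 symbols left of 0.

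Whether doxorubicin acted differently in KO was tested as the interaction of genotype and treatment. Limma called 0 of 22 members and 0 of 10292 genes (0%) with or without the block. At an unadjusted p under 0.05 there were 3 members and 468 genes without it, and 6 members and 1610 genes with it. The lowest adjusted p of a member was 0.922 in the fit lacking the block and 0.196 in the blocked fit, the latter for H2afz at -0.64 (SE 0.14 with the block). Hist3h2a was at -0.68 (SE 0.25), Hist1h4i at -0.57 (SE 0.23) and H1fx at -1.08 (SE 0.41). For Hist3h2a and Hist1h4i this was a smaller rise in KO, while H1fx differed by 0.27 in WT and -0.80 in KO. The 8 Hist genes split evenly, with 4 above 0 and 4 below. A difference in response between the genotypes was thus not detectable for any member at 3 libraries a group, and the values do not show that the responses were alike.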

How the data were processed

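The authors deposited CPM per gene in 2 tables, 1 per treatment, each with both genotypes. Per the submitters' processing notes the tools were edgeR, HTSeq and TopHat2 2.0.6 and the assembly was NCBIM37, with no role given here. All values of a library were whole multiples of 1 read over its total (within 0.001 of a read, 100% of values), so both tables share a scale. The tables are CPM, so limma 3.58.1 (lmFit, eBayes with trend, R 4.3.3) was run on log2(CPM + 1), and tests meant for counts were not run. That scale understates the change of low genes. Genes under a mean of 1 CPM were to be left out, and none were. P-values were adjusted by Benjamini-Hochberg over all genes of each fit, at 0.05. KO was set against WT within a table, and doxorubicin against mock and the interaction used all 12 libraries in 4 groups, for genes in both tables.

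Replicate numbers were checked as pairs. Deviations from the group means correlated, across genes, at 0.668 to 0.856 between WT and KO libraries of the same number and treatment, and at 0.342 to 0.728 across treatments, while different numbers gave -0.732 to -0.0065. Because deviations cancel out within a group, positive values for the same number force negative ones between numbers. The negative range thus adds no support of its own. On the correlations between the same numbers, the numbers were used as a block in a second fit, with the pairing taken from the data.

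The members and lists were chosen with earlier results of these data known. Each library's values were given for the 14 members that are not Hist genes and for all 8 Hist genes in both tables. They were also given for the 4 Hist genes with the largest genotype differences in each table. For the lists of histone mRNA factors, chaperones, H2A.X phosphorylation and other HMG genes the 4 largest WT changes were named. Npat and Slbp were added after their values were seen. That rule was not followed for the proliferation genes, of which Top2a and Mki67 were named, or for the cell type markers. Stem-loops and shared 50-base stretches were read from GENCODE vM21 transcripts, and promoters from RefSeq GRCm38.p6. The scripts were tested on simulated data.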

Additional observations from a re-analysis of the deposited data

How the results depend on the processing

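For doxorubicin against mock the counts of members called, 18 in WT and 17 in KO, stayed within 1.5 times under every alternative run: pseudocounts of 0.25 and 5, a filter at a mean of 5 CPM, median centring, quantile normalization, the replicate block and leaving out each library or pair. A fit with no filter could change nothing, because the main filter had left out no genes. Over all genes the replicate block raised the KO count from 3552 to 5524. Without a block 0 members and 0 genes were called between genotypes and for the interaction, under these settings and without each library, except 1 gene after doxorubicin at a pseudocount of 0.25. With the replicate block 2 members and 98 genes were called in mock, and 12 members and 2820 genes after doxorubicin, and the block changed 3 other calls of members, all in doxorubicin against mock and given beside them. When 1 pair was also left out (pairs 1, 2 and 3 in turn), mock gave 0, 0 and 15 members and 4, 0 and 2438 genes, and doxorubicin gave 3, 11 and 8 members and 692, 2590 and 1560 genes. Signs turned only for differences that were not called, and the cause was not tested. The interaction of Hist1h2be became 0.12 at a pseudocount of 0.25, that of H2afy2 -0.04 at a pseudocount of 5, and KO minus WT of Hist1h1d after doxorubicin 0.00129 at a pseudocount of 0.25 and 0.00369 under quantile normalization. With the block and without pair 1, KO minus WT after doxorubicin turned to 0.10 for Hist1h1c and 0.17 for Hist1h1d, and the interaction to -0.02 for H2afv and -0.21 for H2afy2. Without pair 2, KO minus WT after doxorubicin turned to -0.000158 for H2afy, 0.05 for H3f3a, 0.04 for Hmgb2 and -0.05 for Hmgn1, and the WT doxorubicin difference to -0.03 for H1fx and 0.04 for H2afy. Without pair 3, KO minus WT in mock turned to 0.11 for H2afj, the KO doxorubicin difference to 0.03 for H3f3a and the interaction to -0.00723 for H2afv. Leaving out 1 library gave a range across 0 for KO minus WT of H2afj in mock (-0.30 to 0.04), for KO minus WT after doxorubicin of H3f3a (-0.15 to 0.11), Hist1h1c (-0.23 to 0.23), Hist1h1d (-0.15 to 0.22), Hmgb2 (-0.15 to 0.09) and Hmgn1 (-0.02 to 0.13), for the doxorubicin difference of H1fx in WT (-0.05 to 0.60) and H3f3a in KO (-0.12 to 0.06), and for the interaction of H2afv (-0.12 to 0.16), H2afy2 (-0.21 to 0.19), Hist1h2be (-0.22 to 0.14) and Hmgn2 (-0.46 to 0.07). Count-based tests were not run. At these depths 2 CPM stood for 28.7 to 41 reads, the level near which Hist1h2bj, Hist1h4a and Hist1h4m lay.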
